A study of Homo sapiens with 9 samples.

Results

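Expression was compared between cells that received an siRNA against CSNK2B and cells that received an siRNA against P300, with 3 libraries labelled si_CSNK2B set against 3 libraries labelled si_P300. These are 6 of the 9 libraries of the series, and all members of both groups entered. The other 3 libraries, labelled NC, received a negative control siRNA and enter no test here. Their levels are given beside some genes for reference. The cells are labelled NCI-H69, a long-established line from small cell lung cancer, and no mutation or other drug is given for any group. All groups share the transfection, and total RNA was taken 48 hours after it. The libraries are described as biological replicates, but the labels do not say whether they came from separate cultures, so p-values measure only the spread between these libraries. The siRNA sequences are not given in the sources used here.

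CSNK2B encodes the regulatory beta subunit of protein kinase CK2, a tetramer whose catalytic subunits come from CSNK2A1 and CSNK2A2. EP300 encodes P300, a histone acetyltransferase that, with its paralogue CREBBP, acetylates histones at enhancers and promoters and acts as a coactivator for many transcription factors. Among those factors are the hypoxia-inducible factors. ATF4, which several results below concern, drives the amino acid and integrated stress response. Setting the groups against each other shows where the 2 siRNAs left different transcript levels, apart from what both share against the control siRNA.

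Total counts ran from 13111637 to 17478059 per library in the 6 libraries, single-end reads of 50 bp. The mitochondrial-like MTRNR2L genes took 2.65% to 4.73% of the counts. The correlation of log2 CPM (the count divided by the TMM-scaled library total) over tested genes was 0.983 to 0.986 between si_CSNK2B libraries, 0.973 to 0.985 between si_P300 libraries and 0.977 to 0.99 across the groups. The groups therefore overlapped in their likeness, and the lowest correlation was within si_P300. On the first principal component, with 35.1% of the variance of the 1000 most variable genes, the score of si_P300 replicate 1 was 25.9, while those of the other 5 libraries ran from -14.7 to 1.88. That library held 45.7% of the squared deviation within si_P300, against 37.1% for replicate 2 and 17.2% for replicate 3. Within si_CSNK2B the shares were 33.4%, 30.8% and 35.8%.

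The labelled cell type was checked against its markers. Of 16 neuroendocrine markers, which define most small cell lung cancers, 12 were in the table and only SYP, a synaptic vesicle protein, passed the filter on low counts. SYP lay at 0.875, 0.817 and 1.16 CPM in si_CSNK2B and at 0.605, 0.620 and 0.673 CPM in si_P300. CHGA, NCAM1 and UCHL1 averaged at most 0.141 CPM in either group. The sum over the list was 1.56 to 2.33 CPM in si_CSNK2B and 1.31 to 1.77 CPM in si_P300, so these data do not show the neuroendocrine profile that the label implies. Of 12 markers of intestinal epithelium, 11 were in the table and 6 passed the filter. CDH17 averaged 183 and 158 CPM, and VIL1 297 and 318 CPM, in si_CSNK2B and si_P300. The sum over that list was 859 to 952 CPM in si_CSNK2B and 818 to 922 CPM in si_P300. Of 9 leukocyte markers, 4 passed the filter, and their list summed to 3601 to 3671 CPM in si_CSNK2B and 2832 to 4444 CPM in si_P300. Of 12 non-neuroendocrine markers, 12 passed the filter. Their list summed to 5251 to 6721 CPM in si_CSNK2B and 4863 to 5802 CPM in si_P300. A sum can be carried by a single member, so the sums do not rank cell types. No tissue of origin is assigned from these lists.

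The targeted transcripts did not separate the groups. CSNK2B (Entrez gene 1460, chr6:31665236-31670343, plus strand, GRCh38) lay at 168, 149 and 139 CPM in si_CSNK2B and at 158, 148 and 163 CPM in si_P300. The ranges overlap, and the NC libraries lay at 193, 168 and 185 CPM. The difference between si_CSNK2B and si_P300 was -0.03 on the log2 scale (SE 0.12, 95% interval -0.30 to 0.24), with an exact two-sided permutation p of 0.7, where 3 against 3 libraries allow no p below 0.1. EP300 (Entrez gene 2033, chr22:41091786-41180079, plus strand) lay at 32.4, 39.4 and 40.6 CPM in si_CSNK2B and at 40.1, 32.9 and 37.3 CPM in si_P300, with NC at 41.8, 50.8 and 43.0 CPM. Its log2 difference was 0.04 (SE 0.14, interval -0.28 to 0.36; exact permutation p = 0.9). Each mean was slightly lower in its own group, but by less than the spread between libraries and with overlapping groups, so si_CSNK2B and si_P300 stand throughout for libraries as labelled. CSNK2A1 differed by 0.06 (interval -0.23 to 0.35), CSNK2A2 by -0.10 (-0.47 to 0.27) and CREBBP by 0.00 (-0.30 to 0.30). All 5 genes were bounded within 1.5-fold, in the sense defined next.

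Each of 12854 genes was tested with edgeR's quasi-likelihood test, and 0 genes (0%) passed an adjusted p of 0.05. At an unadjusted p under 0.05 there were 336 genes (2.61%), 168 in each direction (1.31% each). DESeq2 called 4 genes (0.0311%) and limma-voom 0. A gene was called bounded where a true difference of 1.5-fold or more was rejected in both directions, at an adjusted p under 0.05. This held for 8610 genes, or 67% of those tested. In 914 genes (7.11%) the 3 libraries of a group all lay on one side of the other 3, with si_CSNK2B higher in 420 (3.27%) and lower in 494 (3.84%). With no difference at all, a share of 0.1 of genes would be expected to lie apart in this way. Likewise 5% would be expected at an unadjusted p under 0.05. Both counts lie below these shares, so neither shows by its size that the groups differ. The median absolute log2 difference was 0.11, the median SE 0.16 and the median half-width of the 95% interval 0.36. As these are bulk libraries, fewer cells of a type and less RNA per cell cannot be told apart. Below, every log2 fold change is si_CSNK2B minus si_P300, and every adjusted p in the edgeR fit was 1.00.

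Of the 12 lowest-p genes with lower levels in si_CSNK2B, 6 were on a list of ATF4 and CHOP targets, genes of the amino acid and integrated stress response. That list held 34 of the 12854 tested genes. It was chosen with earlier results of these data known, so the count is a description only. The 12 genes named on each side were those of lowest unadjusted p whose groups were apart and whose higher group averaged 50 counts or more. None passed the test in edgeR. ADM2, which encodes the secreted peptide adrenomedullin 2 (chr22:50481556-50486440, plus strand), lay at 2.86, 3.94 and 2.65 CPM in si_CSNK2B and at 10.4, 6.61 and 8.13 CPM in si_P300. NC averaged 25.4 CPM ± 2.75 (SD, n = 3), above every library of either siRNA group. The log2 fold change was -1.41 (SE 0.26, interval -1.98 to -0.84; unadjusted p = 0.00028). SLC1A4 (chr2:64988477-65023865, plus strand), a transporter of neutral amino acids such as alanine and serine, lay at 11, 12.9 and 10.4 CPM in si_CSNK2B and at 20.1, 19.8 and 20.9 CPM in si_P300. Its log2 fold change was -0.82 (SE 0.15, interval -1.15 to -0.48), from 11.4 CPM ± 1.28 to 20.3 CPM ± 0.563 (SD, n = 3 each). Here the spread of si_P300 was small and replicate 1 did not stand out. DESeq2 called both genes, with an adjusted p of 0.012 for ADM2 and 0.030 for SLC1A4.

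ADM2 was on the list of ATF4 and CHOP targets and SLC1A4 was not. Other genes of that list followed. CHAC1, a glutathione-degrading enzyme induced by ATF4, lay at 50.7, 59.2 and 35.3 CPM in si_CSNK2B and at 180, 65.6 and 105 CPM in si_P300. Its log2 fold change of -1.27 (SE 0.32) became -0.81 without si_P300 replicate 1, the library at 180 CPM. MTHFD2, a mitochondrial folate enzyme, lay at 210, 220 and 143 CPM and at 350, 251 and 302 CPM (-0.65, SE 0.19). CTH, which makes cysteine from cystathionine, lay at 14.8, 18.4 and 11.2 CPM and at 31.5, 18.5 and 26.4 CPM. Its groups were only just apart, since the highest si_CSNK2B library was at 18.4 and the lowest si_P300 library at 18.5 CPM. SESN2, a sestrin that restrains mTORC1 when leucine is scarce, lay at 47.6, 50.1 and 43.6 CPM and at 75.2, 59.1 and 70.3 CPM (-0.52, SE 0.14). INHBE, an inhibin beta chain, lay at 1.81, 3.49 and 1.29 CPM and at 7.75, 5.03 and 5.50 CPM (-1.48, SE 0.36). NC averaged 99.6 CPM for INHBE, far above both siRNA groups, and 141 CPM for CTH, 156 CPM for SESN2 and 923 CPM for MTHFD2.

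Also on this side were ERAP1 and ERAP2, aminopeptidases that trim peptides for antigen presentation. ERAP1 lay at 21.4, 25.8 and 20.4 CPM in si_CSNK2B and at 32.0, 35.5 and 33.0 CPM in si_P300 (-0.56, SE 0.14). ERAP2, its neighbour on chromosome 5, lay at 42.9, 51.9 and 43.6 CPM and at 69.1, 63.7 and 67.9 CPM (-0.52, SE 0.13). For both, the NC mean lay between the siRNA groups, at 29.9 and 58.2 CPM. HSPB8, a small heat shock protein, lay at 51.1, 45.5 and 53.6 CPM and at 80.6, 88.2 and 68.4 CPM, with NC at 81.9 CPM. Its log2 fold change was -0.64 (SE 0.14; unadjusted p = 0.00080), and si_CSNK2B was the group away from NC. The other named genes on this side were SLCO2A1, a prostaglandin transporter (-0.73), and the readthrough transcript POC1B-GALNT4 (-0.54), whose reads are shared with POC1B and GALNT4. The NC mean lay above both siRNA groups in 9 of the 12 genes and between them in 3.

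**Figure D1:**
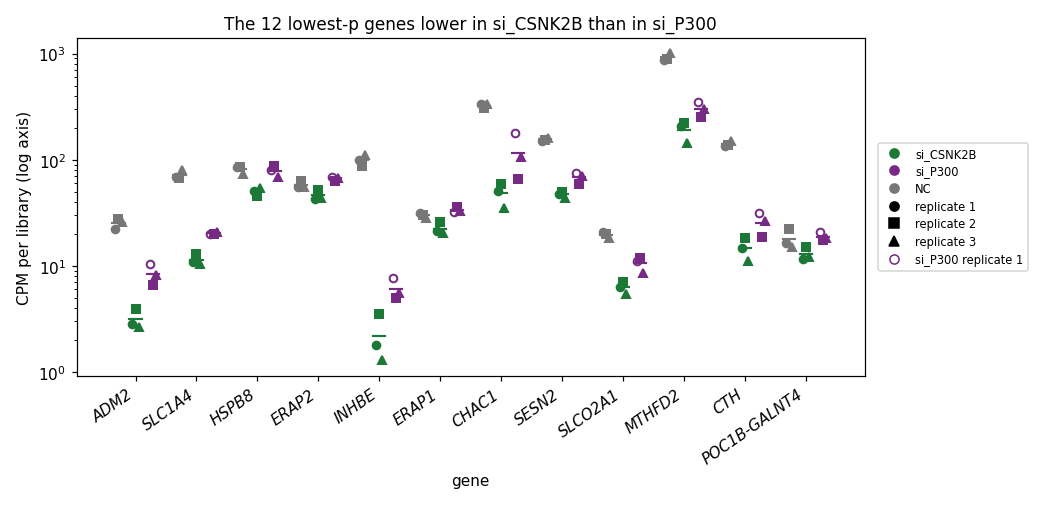
Expression in CPM per library (log axis) of the 12 lowest-p named genes with lower levels in si_CSNK2B (green) than in si_P300 (purple), with NC in grey; bars mark group means (n = 3) and the open circle si_P300 replicate 1. The 3 si_CSNK2B points lie below the 3 si_P300 points in each gene, and for ADM2, INHBE and CTH the NC points lie above both.

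Among genes with higher levels in si_CSNK2B were a chromatin protein, matrix and membrane proteins and a histone. The lowest p belonged to RBBP4 (chr1:32651142-32686211, plus strand), a histone-binding WD40 protein found in several chromatin complexes. RBBP4 lay at 164, 154 and 146 CPM in si_CSNK2B, at 83, 61.6 and 101 CPM in si_P300 and at 137, 139 and 142 CPM in NC. The si_P300 libraries were the low ones, while si_CSNK2B lay just above NC. The log2 fold change was 0.93 (SE 0.17, interval 0.54 to 1.31; unadjusted p = 0.00033), or 1.90-fold, and 0.94 without si_P300 replicate 1. DESeq2 called RBBP4 with an adjusted p of 0.0055. ANXA1, the phospholipid-binding annexin A1, lay at 89.1, 96.3 and 97.8 CPM in si_CSNK2B and at 59.8, 74.3 and 66.2 CPM in si_P300 (0.51, SE 0.12). NC averaged 91.6 CPM for ANXA1, so si_P300 was again the group away from NC.

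For the following genes si_CSNK2B was the group farther from NC. AKR1B10, an aldo-keto reductase, lay at 14.3, 7.5 and 15.6 CPM in si_CSNK2B, at 5.33, 5.51 and 6.54 CPM in si_P300 and at 4.74 CPM on average in NC (1.12, SE 0.27). HAS3, a hyaluronan synthase, lay at 78.5, 58.5 and 83.4 CPM and at 49.7, 51.4 and 49.2 CPM (0.57, SE 0.15). COL27A1, a fibrillar collagen chain, lay at 75.3, 89.4 and 99.4 CPM and at 57.9, 52.4 and 70.8 CPM (0.56, SE 0.16). The spread was wider in si_CSNK2B than in si_P300 for HAS3 and AKR1B10. ZFPM1, a cofactor of GATA factors, differed by 0.60 (SE 0.15) and SEMA4G, a semaphorin, by 0.63 (SE 0.19).

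Some differences in this direction rest on few reads or on shared sequence. OLFM4, a secreted glycoprotein known as an intestinal stem cell marker, had the widest log2 fold change of the 24, 2.29 (SE 0.65, interval 0.84 to 3.74). It lay at 8.28, 2.08 and 7.88 CPM in si_CSNK2B and at 0.220, 2.00 and 1.65 CPM in si_P300. The lowest si_CSNK2B library and the highest si_P300 library were nearly level, and without si_P300 replicate 1 the value was 1.76. TBC1D3H (1.14, SE 0.29) belongs to a family of near-identical copies among which reads can be split. H2BC12 (0.81, SE 0.23) is a histone gene of the same kind. FAM8A1 (0.44, SE 0.13) did not rest on few reads, with mean counts of 840 in si_CSNK2B and 662 in si_P300. The NC mean lay below both siRNA groups in 7 of these 12 genes and between them in 5.

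**Figure D2:**
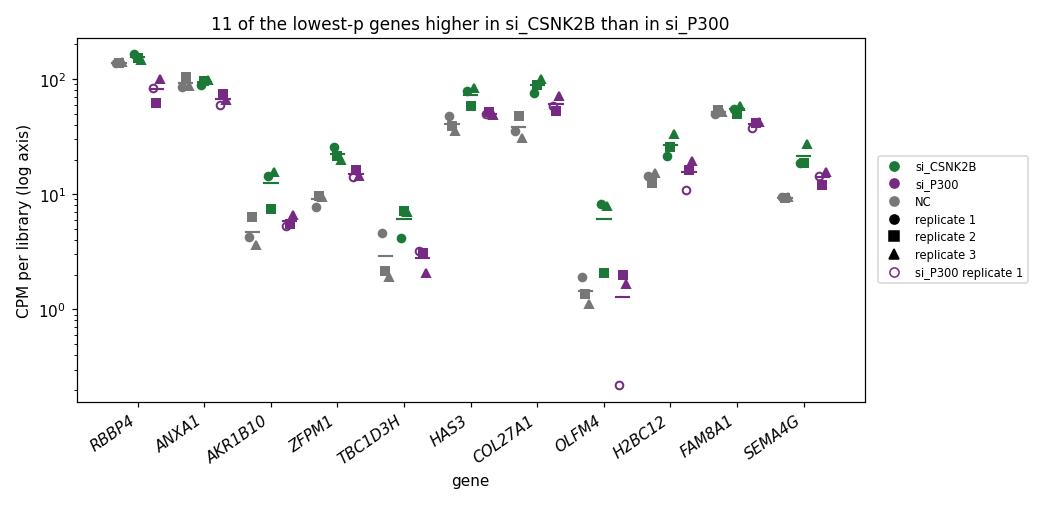
Expression in CPM per library (log axis) of 11 of the lowest-p named genes with higher levels in si_CSNK2B (green) than in si_P300 (purple), with NC in grey; bars mark group means (n = 3) and the open circle si_P300 replicate 1. For RBBP4 the si_P300 points (61.6 to 101 CPM) lie below those of NC and si_CSNK2B, and for OLFM4 si_P300 replicate 1 lies far below all other libraries.

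How much si_P300 replicate 1 carried depended on how genes were picked. Of the 34 genes with a difference of 2-fold or more and a mean count of at least 50, 11 stayed at 2-fold without it. Another 10 took the opposite sign, and the median gene kept 46.1% of its log2 fold change. When any other library was left out, 25 to 31 of the 34 stayed at 2-fold, none took the opposite sign, and the median kept was 89.7% to 125%. The 24 lowest-p named genes behaved differently, since their choice required groups that do not overlap. All 24 kept their direction without si_P300 replicate 1, with a median of 94.7% kept, against 87.7% to 113% for the other libraries. Over the 336 genes at an unadjusted p under 0.05, 333 of the 335 with a value kept their direction. That was largely set by their choice, since their low p came from the same libraries. Without si_P300 replicate 1, 18 of them kept less than 50% of their log2 fold change, against 0 to 4 without any other library.

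The 10 genes by which si_P300 replicate 1 stood highest above replicates 2 and 3 were chosen for that pattern and are given with no test. FOS, a subunit of the AP-1 transcription factor, lay at 196, 16.7 and 18.7 CPM in si_P300 and at 13.9, 32.8 and 15.6 CPM in si_CSNK2B. EGR1, a zinc finger transcription factor, lay at 233, 23.8 and 25.6 CPM and at 19.6, 38.6 and 22.3 CPM. In both genes replicates 2 and 3 of si_P300 lay within the range of si_CSNK2B, and NC averaged 292 CPM for FOS and 391 CPM for EGR1. The log2 fold change of FOS was -1.90 (SE 0.81) over 6 libraries and 0.24 without si_P300 replicate 1, and that of EGR1 was -1.81 (SE 0.75) and 0.13. CCN2, a matricellular protein induced by YAP and by serum, lay at 170, 17.8 and 32.7 CPM in si_P300 and at 15.2, 36.4 and 16.8 CPM in si_CSNK2B (-1.69, and -0.14 without that library).

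The hypoxia-inducible genes ADM and ANKRD37 showed the same pattern. ADM, the vasodilator peptide adrenomedullin, lay at 44.1, 4.06 and 3.36 CPM in si_P300 against 4.49, 7.35 and 2.84 CPM in si_CSNK2B. ANKRD37 lay at 48.5, 3.93 and 3.55 CPM against 6.24, 10.9 and 5.81 CPM. For both, si_P300 replicate 1 also lay above the NC mean, which was 8.61 CPM for ADM and 15.7 CPM for ANKRD37. BHLHE40, a repressor linked to hypoxia and the circadian clock, reached 362 CPM in that library against 60.8 and 57.4 CPM in its replicates. HSPA6, a strictly stress-induced HSP70, reached 27.7 CPM there, against 2.76 and 0.795 CPM, while NC averaged 225 CPM. The remaining genes of this choice were FOSB, NKAIN4 and BIRC7. The sign of the log2 fold change turned without that library in each of these 10 genes except CCN2.

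Genes by which si_P300 replicate 1 stood lowest below its replicates were chosen in the same way and have no test. CXCL10, an interferon-induced chemokine, lay at 2.20, 16.3 and 7.58 CPM in si_P300, against 11, 13.4 and 18 CPM in si_CSNK2B. RSAD2, an antiviral enzyme, lay at 10.5, 44.8 and 32.8 CPM against 15.2, 20.7 and 34.1 CPM. UBD, a ubiquitin-like modifier, lay at 12.6, 53.7 and 49.8 CPM against 19.7, 35 and 10.9 CPM. TXNIP, an inhibitor of thioredoxin that follows glucose, lay at 10.0, 45.4 and 41.9 CPM, and si_CSNK2B replicate 2 was as low, at 13 CPM. REG1A (30.5 against 213 and 90.7 CPM), GATD3A, APOBEC3A, OLFM4 and the identical pair F8A2 and F8A3 completed the choice. The 2 F8A copies held the same values in each library, so their reads cannot be told apart.

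**Figure D3:**
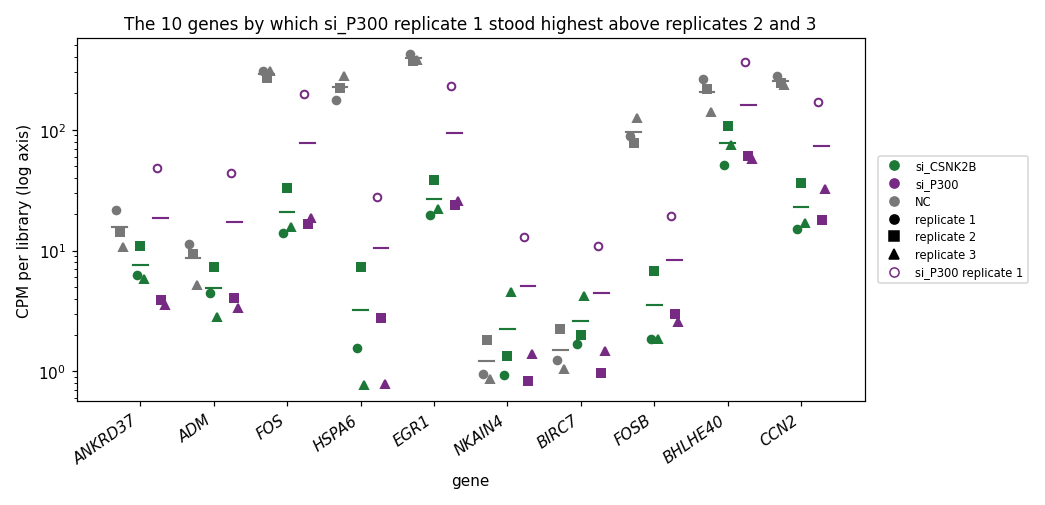
Expression in CPM per library (log axis) of the 10 genes by which si_P300 replicate 1 (open circle) stood highest above si_P300 replicates 2 and 3 (purple), beside si_CSNK2B (green) and NC (grey); bars are group means (n = 3). For FOS that library lies at 196 CPM and its replicates at 16.7 and 18.7 CPM, inside the si_CSNK2B range of 13.9 to 32.8 CPM.

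**Figure D4:**
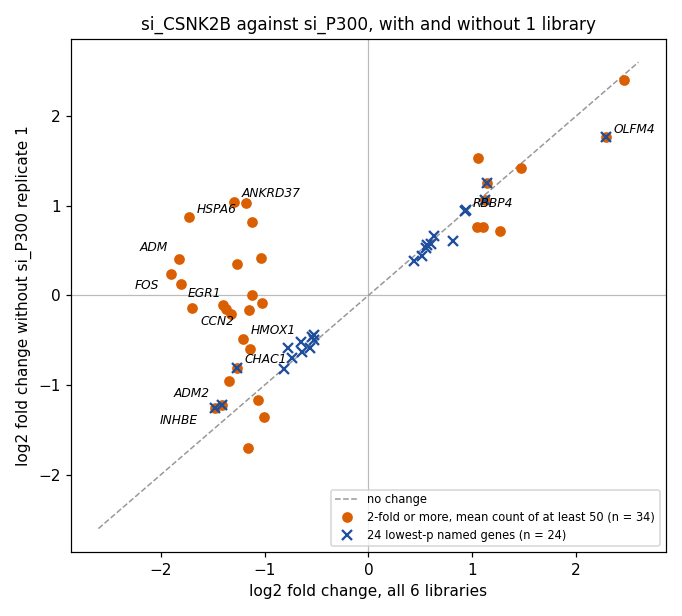
Log2 fold change of si_CSNK2B against si_P300 over 6 libraries (x axis) and without si_P300 replicate 1 (y axis), for the 34 genes at 2-fold or more with a mean count of at least 50 (orange) and the 24 lowest-p named genes (blue crosses). The dashed line marks no change. The crosses, chosen for groups that do not overlap, all keep their sign, while 10 orange points take the opposite sign.

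Gene lists place these genes among their pathways. They are described by their counts beside those of all tested genes, of which 2.61% had an unadjusted p under 0.05 and whose median log2 fold change was 0.00. Groups did not overlap in 3.84% of all tested genes with si_CSNK2B lower and in 3.27% with it higher, and 67% were bounded. Of 34 tested members of a list of ATF4 and CHOP targets, 30 had a lower and 4 a higher mean in si_CSNK2B, and 0 passed the test in edgeR. At an unadjusted p under 0.05 there were 18 members, all lower, and 13 had groups that did not overlap. The median log2 fold change was -0.55 and -0.37 without si_P300 replicate 1. In each library the median member, set against its mean over the 6 libraries, lay at -0.24, -0.03 and -0.37 in si_CSNK2B replicates 1 to 3 and at 0.53, -0.05 and 0.31 in si_P300. Replicate 2 of both groups therefore lay nearly level, and the difference sat in the other 4 libraries.

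Beyond the genes named above, this list held amino acid enzymes and transporters. ASNS, asparagine synthetase, lay at 169, 169 and 108 CPM in si_CSNK2B and at 313, 175 and 236 CPM in si_P300 (-0.69, SE 0.23). SLC7A11, the cystine transporter of system xc-, lay at 33.0, 42.1 and 35.7 CPM and at 100, 41.9 and 72.7 CPM (-0.95, SE 0.27). Its groups overlapped slightly. PSAT1 (-0.58) and PSPH (-0.35), enzymes of serine synthesis, and PCK2 (-0.57) had groups that did not overlap. DDIT3, which encodes CHOP, lay at 133, 33.7 and 39.0 CPM in si_P300 against 38.0, 46.5 and 35.9 CPM in si_CSNK2B, and its value turned from -0.77 to 0.16 without si_P300 replicate 1. ATF4 itself was bounded within 1.5-fold, at 535, 572 and 486 CPM against 695, 513 and 569 CPM. The genes of this paragraph were taken from the list after their values were seen.

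The promoters of the list were searched for the composite C/EBP-ATF response element, TGATGNAA, on both strands, in the 250 bases before the RefSeq start on GRCh38.p14. The motif was chosen after the values were seen, and 27 of the list's promoters were matched. It was in 3 of them (11.1%), those of ASNS, CHAC1 and FGF21, against 1.56% of 10525 promoters of tested genes. The windows of ASNS (chr7:97872409-97872658, minus strand) and CHAC1 (chr15:40953221-40953470, plus strand) are shown because both genes had groups that did not overlap, with the match in capitals. In CHAC1 it stands on the opposite strand and so reads as its reverse complement.
ASNS: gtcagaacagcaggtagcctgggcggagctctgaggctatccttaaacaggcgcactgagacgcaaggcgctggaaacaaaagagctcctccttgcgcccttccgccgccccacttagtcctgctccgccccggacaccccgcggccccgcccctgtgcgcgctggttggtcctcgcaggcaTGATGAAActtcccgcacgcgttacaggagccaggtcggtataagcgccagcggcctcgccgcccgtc
CHAC1: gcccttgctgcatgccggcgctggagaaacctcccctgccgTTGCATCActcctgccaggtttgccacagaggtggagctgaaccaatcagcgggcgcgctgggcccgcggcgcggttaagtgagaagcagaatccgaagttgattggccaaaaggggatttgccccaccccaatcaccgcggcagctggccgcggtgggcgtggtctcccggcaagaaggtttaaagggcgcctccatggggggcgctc
A match describes the letters of this window and is no evidence that a factor binds there. ADM2, CTH, MTHFD2 and SESN2 held no match in their windows.

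Immediate early genes, which are transcribed within minutes of a growth factor or stress signal, had a median that turned without a single library. Of 29 tested members, 25 had a lower mean in si_CSNK2B, 4 had an unadjusted p under 0.05 and 1 had groups that did not overlap. That member was lower in si_CSNK2B, as were 3.84% of all tested genes without overlap. The median of -0.45 became 0.04 without si_P300 replicate 1. In that library the median member lay at 0.79, against -0.15 and -0.17 in its replicates and -0.43, 0.08 and -0.16 in si_CSNK2B. The CArG box, bound by serum response factor, was searched in the same windows after those results were seen. It was in 2 of 23 promoters of the list (8.70%), those of EGR1 and SRF, against 1.02% of promoters of tested genes. The window of EGR1 (chr5:138465229-138465478, plus strand), one of the 10 genes by which si_P300 replicate 1 stood highest above its replicates, held 2 boxes, shown in capitals.
EGR1: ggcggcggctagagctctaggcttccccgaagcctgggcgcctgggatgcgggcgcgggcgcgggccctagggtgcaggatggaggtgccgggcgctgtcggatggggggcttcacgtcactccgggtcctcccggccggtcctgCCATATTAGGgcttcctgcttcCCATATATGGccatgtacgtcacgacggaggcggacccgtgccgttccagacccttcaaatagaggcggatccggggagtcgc

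The median of hypoxia and glycolysis genes also turned without that library. Of 26 tested, 24 had a lower mean in si_CSNK2B, and the median of -0.20 became 0.07 without si_P300 replicate 1. HK2, the first enzyme of glycolysis in many tumour cells, lay at 253, 131 and 128 CPM in si_P300 and at 132, 134 and 113 CPM in si_CSNK2B, and PFKP was bounded within 1.5-fold. Feedback genes of MAPK signalling and EGFR ligands had a median of -0.21 over 19 genes and -0.08 without that library. DUSP6, an ERK phosphatase, lay at 31.9, 35.4 and 32.0 CPM in si_CSNK2B and at 83.9, 44.2 and 40.1 CPM in si_P300, and its value of -0.75 (SE 0.25) became -0.33. ERRFI1, a feedback inhibitor of EGFR, reached 945 CPM in si_P300 replicate 1 and lay between 192 and 313 CPM in the other 5 libraries. The YAP and TEAD targets gave a median of -0.18 over 19 genes, and -0.07 without it. Among antioxidant genes, HMOX1, which degrades heme, lay at 72.0, 92.9 and 72.7 CPM in si_CSNK2B and at 328, 115 and 109 CPM in si_P300. Its log2 fold change of -1.21 (SE 0.37) became -0.48, with groups that did not overlap and an NC mean of 1404 CPM.

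No DNA replication gene passed the test in edgeR. All 38 tested members had a lower mean in si_CSNK2B, as did 6496 of all 12854 tested genes. At an unadjusted p under 0.05 there were 6 members, 7 had groups that did not overlap, and 13 were bounded within 1.5-fold. Over all tested genes, 3.84% had no overlap with si_CSNK2B lower and 67% were bounded. The median was -0.27, and -0.20 without si_P300 replicate 1. MCM2 and MCM5, subunits of the replicative helicase, gave -0.56 (SE 0.18) and -0.52 (SE 0.16). MCM2 lay at 59.4, 47.7 and 37.0 CPM in si_CSNK2B and at 82.8, 64.6 and 67.4 CPM in si_P300, with NC at 68.0 CPM. POLA1, the catalytic subunit of DNA polymerase alpha, lay at 22.3, 17.9 and 14.3 CPM and at 30.5, 23.6 and 26.4 CPM (-0.55, SE 0.18). The median member lay at 0.11, -0.13 and -0.43 in si_CSNK2B and at 0.32, 0.10 and 0.10 in si_P300, so si_CSNK2B replicate 1 lay level with si_P300 replicates 2 and 3. Leaving out that si_CSNK2B library moved the median to -0.46, and leaving out si_CSNK2B replicate 3 moved it to -0.18. Genes of G2/M and mitosis gave a median of -0.05 over 30 members, with -0.23 without si_CSNK2B replicate 1 and 0.08 without si_CSNK2B replicate 3. Of them 20 were bounded, a share near the 67% of all tested genes.

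MHC class I genes display peptides to T cells, and none passed the test in edgeR. All 15 tested members had a lower mean in si_CSNK2B, with 4 at an unadjusted p under 0.05, 3 without overlap and 7 bounded. The shares over all tested genes were 3.84% without overlap on that side and 67% bounded. The median was -0.28, with -0.42 without si_P300 replicate 1 and -0.12 without si_P300 replicate 2. TAP2, a subunit of the peptide transporter, lay at 48.2, 52.7 and 53 CPM and at 60.1, 66.1 and 69.3 CPM (-0.33, SE 0.12) and was bounded as well. HLA-B, a heavy chain of the family picked here after its values were seen, lay at 399, 460 and 391 CPM in si_CSNK2B and at 403, 712 and 545 CPM in si_P300, with replicate 1 at the level of si_CSNK2B. Interferon-induced genes gave a median of -0.05 over 37 members, 16 higher and 21 lower, with -0.19 without si_P300 replicate 1 and 0.16 without si_P300 replicate 2. OAS3, an antiviral oligoadenylate synthetase, named for that reason, was the single member whose groups did not overlap (-0.31, SE 0.13).

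Aminoacyl-tRNA synthetases, several of which are ATF4 targets, gave a median of -0.14 over 20 members. It was -0.17 without si_P300 replicate 1, -0.06 without si_P300 replicate 3 and -0.20 without si_CSNK2B replicate 1. Of these, 17 were lower in si_CSNK2B, 4 had groups that did not overlap and 16 were bounded within 1.5-fold. All tested genes gave 3.84% without overlap and lower in si_CSNK2B, and 67% bounded. GARS1, the glycyl enzyme, lay at 273, 270 and 220 CPM and at 332, 299 and 352 CPM (-0.36, SE 0.13), with NC at 755 CPM. Replication-dependent histone genes pointed the other way. Of 12 tested, 11 had a higher mean in si_CSNK2B, 2 had an unadjusted p under 0.05 and 0 were bounded, with a median of 0.34 and of 0.30 without si_P300 replicate 1. Their transcripts largely lack poly(A) tails, and their summed level was low, 73.4 to 92.5 CPM in si_CSNK2B and 45.4 to 67.0 CPM in si_P300. The MTRNR2L genes, 8 of 9 higher in si_CSNK2B with a median of 0.39, went the same way, and their part in the histone result was not tested.

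**Figure D5:**
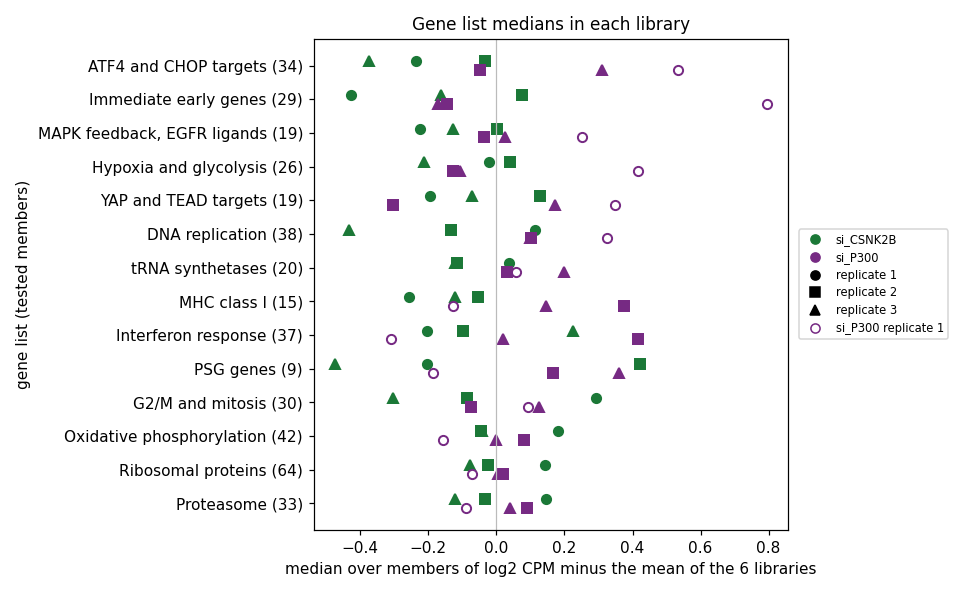
Median over the tested members of each gene list (number in brackets) of log2 CPM in each library minus the mean of the 6 libraries, for si_CSNK2B (green) and si_P300 (purple; open circle, replicate 1). In immediate early genes si_P300 replicate 1 lies at 0.79 and the other 5 libraries between -0.43 and 0.08, while the medians of the DNA replication list run from -0.43 to 0.32.

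The bound shows where the groups were measured as close. It was reached by 89.9% of genes with a mean count of at least 1000, by 82.1% of those with 200 to 1000, by 35.8% of those with 50 to 200 and by 0.912% of those under 50. A gene that missed it is therefore often a gene with few reads. Nearly whole lists were bounded, among them 63 of 64 ribosomal proteins, 33 of 33 proteasome subunits, 30 of 30 ribosome biogenesis factors and 40 of 42 oxidative phosphorylation genes. Of the protein modifiers closest to the siRNA targets, 4 of 4 CK2 subunit genes and 11 of 12 lysine acetyltransferases were bounded. The chaperones and degradation factors of the endoplasmic reticulum (22 of 25), autophagy and lysosome genes (25 of 26) and RNA interference factors (11 of 12) were too. By contrast 1 of 9 PSG genes and 5 of 34 ATF4 and CHOP targets reached the bound, against 67% of all tested genes. No list was set against genes of like read count, so the share of any list may follow its read counts.

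Several bounded genes lay far from NC in both siRNA groups. They were picked for that distance, so the distance is a description only. ARHGEF2, a microtubule-bound RhoA exchange factor, lay at 64.4, 80.1 and 67.5 CPM in si_CSNK2B, at 71.1, 79.8 and 71.6 CPM in si_P300 and at 424 CPM on average in NC. Its difference between the siRNA groups was -0.06 (interval -0.34 to 0.23). MAP1LC3B, an autophagosome protein, lay at 70.2, 79.9 and 72.4 CPM and at 87.9, 82.3 and 73.7 CPM, against 356 CPM in NC. EGFR, the epidermal growth factor receptor, lay at 52.1, 54.6 and 49.2 CPM and at 61.8, 46.1 and 54.8 CPM, against 198 CPM (-0.05, interval -0.36 to 0.26). CD55, which protects cells from complement, lay at 203 to 262 CPM in si_CSNK2B and 239 to 261 CPM in si_P300, against 1053 CPM.

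Other genes on that side were ATF5, DNAJB9, PRSS2, EIF4EBP1, AKNA, KLHL5 and TUFT1. DNAJB9, a co-chaperone of the endoplasmic reticulum, was bounded although its groups did not overlap, at 24, 25.3 and 25.8 CPM and at 23.5, 17.6 and 22.0 CPM (0.26, interval -0.07 to 0.60). EIF4EBP1, a repressor of cap-dependent translation and an ATF4 target, was bounded too (-0.24, interval -0.57 to 0.08), and so was ATF5 (0.01, interval -0.57 to 0.59), a transcription factor of the same response. ADM2, SLC1A4 and CHAC1, of the same response, did not reach the bound.

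Below both siRNA groups in NC were S100A4, PSG2, SLC40A1 and others. S100A4, a calcium-binding protein, lay at 46.3, 38.9 and 43.2 CPM in si_CSNK2B and at 46.7, 39.5 and 42.9 CPM in si_P300, against 13.5 CPM in NC. Its difference was 0.00 (SE 0.13, interval -0.29 to 0.30), among the closest of all. SLC40A1, the iron exporter ferroportin, lay at 51.0, 38.5 and 32.6 CPM and at 35.5, 56.5 and 40.9 CPM, against 12 CPM. CST1, a secreted cystatin, was the most abundant, at 2280, 3653 and 2278 CPM and at 1707, 3109 and 3399 CPM, against 899 CPM. PSG2, a pregnancy-specific glycoprotein, lay at 16.4, 24.8 and 16.2 CPM and at 15.7, 18.7 and 21.3 CPM, against 3.76 CPM, and was the only bounded gene of its family. The others were EPN3, the readthrough BCL2L2-PABPN1, MICALL2, CST2, S1PR3, JCAD, NDRG2 and RBBP8NL.

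Precision set what could be seen. Counts were simulated with the library sizes and gene dispersions of these libraries. In them the edgeR test recovered 20.9% of genes changed by 1.5-fold, 66.2% of those changed by 2-fold and 95.5% of those changed by 4-fold, and called none of them bounded. The simulation held no outlying library like si_P300 replicate 1. Its unchanged genes had an unadjusted p under 0.05 in 4.71%, against 2.61% of all tested genes in the data. These rates therefore describe the simulation and may not hold for this comparison. Strand use in counting is not given in the sources used here, and 13 of the 23 named low-p genes found in the annotation overlap another annotated gene, so part of their reads may belong to a neighbour.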

How the data were processed

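RNA sequencing of 9 libraries was used, with 3 libraries labelled si_CSNK2B compared with 3 labelled si_P300. The deposited table holds 17529 genes. Its read counts are estimated counts made by the authors (24.7% to 39.4% of values per library are whole numbers, zeros included), and its FPKM and TPM columns were scaled by the authors, per the file headers. HISAT, Bowtie2 and GRCh38.p13 are named in the submitters' processing notes. The counting tool, annotation and strand setting are not given in the sources used here. A further 9 columns of per-library normalized counts and 12 columns of averages were not used.

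Estimated counts were rounded to whole numbers. Genes were kept by edgeR's filterByExpr with a minimum count of 10, scaled by TMM and tested with edgeR's quasi-likelihood test on the 6 libraries alone, with Benjamini-Hochberg adjustment over 12854 genes (R 4.3.3, edgeR 4.0.16). Bounds came from 2 one-sided tests of the same kind against a 1.5-fold difference either way, the larger p being adjusted. Printed CPM use TMM factors over all 9 libraries, so that NC can stand beside. Each SE came from tests against values 0.5 either side of the estimate.

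Genes named are the targets, the 12 each way with the lowest p, no overlap between groups and a mean count of at least 50, up to 3 members of a list with the lowest p, the 12 bounded genes each way farthest from NC, and the 10 each way by which si_P300 replicate 1 stood apart. Uncharacterised, antisense, small RNA, MTRNR2L and mitochondrial genes were left out of the choice by values. Any other gene named was picked with its values known, as stated there. The comparison, the rule and all lists were chosen with earlier results of these data known. The test was run on simulated counts for 12730 genes. Alternatives were DESeq2 1.42.0, limma 3.58.1 on counts, FPKM and TPM, other scalings and filters, a replicate block, all libraries in 1 fit, and each library left out. Gene positions are from GENCODE 29 and promoters from RefSeq on GRCh38.p14. A few genes that met these rules are not reported here.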

Additional observations from a re-analysis of the deposited data

How the results depend on the processing

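With edgeR, 0 genes passed in the 6 libraries, without any single library, with other scalings and filters and with all 9 libraries in 1 fit, where 661 of 13129 genes had an unadjusted p under 0.05. limma also called 0, with 310 genes at an unadjusted p under 0.05 by limma-voom. DESeq2 called 4 genes, 2 higher and 2 lower in si_CSNK2B. The bound decides the number of bounded genes, which was 0 when differences of 25% or more had to be rejected in place of 50%, and 11713 for 2-fold. It was 15548 by limma on log2(FPKM + 1) with no filter, where a low value is held near 0 by the added 1. Leaving out a library gave 6295 to 8542 bounded genes and 182 to 726 genes at an unadjusted p under 0.05. The 24 lowest-p named genes kept their sign in all 454 pairs of gene and alternative. That was largely set by their choice, which required groups that do not overlap, and is no separate support. Of these pairs, 3 passed an adjusted p of 0.05, RBBP4, ADM2 and SLC1A4 by DESeq2. Their adjusted p over the alternatives ran from 0.0055, 0.012 and 0.030 up to 1. Over the libraries left out in turn, the log2 fold change ran from -2.26 to 0.13 for EGR1, from -2.38 to 0.24 for FOS and from -2.31 to 0.41 for ADM, turning only without si_P300 replicate 1. Of list medians, 53 of 774 pairs took the opposite sign. The share of 2-fold genes that stayed 2-fold without si_P300 replicate 1 was 32.4% in edgeR and 53.6% in limma-voom, an alternative added after seeing the data, as was TMM over the 6 libraries alone for the overlap counts. The cause was not tested. With the replicate number as a block, 0 genes were called, 309 had an unadjusted p under 0.05 and 8478 were bounded. Deviations of same-numbered libraries correlated at -0.22, 0.04 and 0.03, and no library correlated best with its own number. These values show no pairing by number, but they cannot tell whether same-numbered libraries were handled together, which the labels do not say.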

Other observations

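Values that stand in no comparison above were chosen after they were seen. TICAM2, a Toll-like receptor adaptor, and its readthrough transcript TMED7-TICAM2 lay in opposite directions. TICAM2 lay at 4.14, 7.35 and 2.26 CPM in si_CSNK2B and at 0.770 and 1.79 CPM in si_P300 replicates 1 and 2, with no count in replicate 3 and a log2 fold change of 2.46 (SE 0.77). TMED7-TICAM2 lay at 7.58 and 8.08 CPM in si_CSNK2B replicates 1 and 3, with no count in replicate 2, and at 9.57, 12.1 and 11.9 CPM in si_P300. Its log2 fold change was -1.06 (SE 0.74), and the share of reads that the counting assigned to each cannot be told apart here. The readthrough TNFAIP8L2-SCNM1, called by DESeq2 with an adjusted p of 0.011, lay at 1.11, 3.79 and 1.42 CPM in si_CSNK2B. In si_P300 it lay at 0.220 CPM in replicate 1 and had no count in replicates 2 and 3, and edgeR gave it an adjusted p of 1.00.

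Oxidative phosphorylation genes, which build the respiratory chain, had a higher mean in si_CSNK2B in 34 of 42 members, with a median of 0.06 and of 0.00 without si_P300 replicate 1. Autophagy and lysosome genes had a lower mean in 22 of 26 members, with a median of -0.11 and of -0.12 without that library. Of those, 3 had groups that did not overlap, all lower in si_CSNK2B, against 3.84% of all tested genes on that side. Cholesterol and lipid genes had 5 of 28 members without overlap, all lower in si_CSNK2B, against 3.84% of all tested genes on that side. Their median was -0.06, and 0.01 without si_CSNK2B replicate 3.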
